A study of Homo sapiens with 8 samples.

Results

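SNORD22, SNORD25, SNORD26, SNORD27, SNORD28, SNORD29, SNORD30 and SNORD31 are the C/D box small nucleolar RNAs (snoRNAs) cut from the introns of a single host gene, SNHG1. They were taken by name from the table of raw counts, where they are 8 of 2962 small RNA features. Small RNA was profiled in HEK293 cells, an immortalised line of human embryonic kidney origin, 48 h after lipid transfection (Lipofectamine RNAiMax) with a synthetic RNA at 50 nM. In 4 libraries, called tDR here, the cells had received the tRNA-Asp-GTC 3′ tDR, a fragment of an aspartate tRNA. In 4 libraries, called scramble, they had received a scrambled control mimic. All 8 libraries came from the same line and were made from TRIzol total RNA by OTTR-seq, a method that adds both adapters during reverse transcription. Separate cultures are not stated for the replicates. The tests below therefore speak of the scatter among these libraries, and that scatter may be technical.

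SNHG1 is a spliced non-coding RNA that carries its snoRNAs in introns, and the cell keeps the intron pieces rather than the exons as stable product. After splicing, exonucleases trim the debranched intron back to the ends of the C/D particle, which protects the snoRNA. Most C/D snoRNAs pair with ribosomal RNA and guide fibrillarin to add a methyl group to the ribose of 1 nucleotide. SNORD25, SNORD27 and SNORD28 guide sites in 18S rRNA, and SNORD26, SNORD29, SNORD30 and SNORD31 guide sites in 28S rRNA. SNORD22, also called U22, has no assigned methylation site and was shown in Xenopus oocytes to be needed for 18S rRNA maturation. All lie within the same host gene, though not within every annotated isoform of it.

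The sequences are shown because the boxes at their ends are what the C/D proteins bind. Each is the annotated snoRNA on the minus strand of chromosome 11 (GRCh38), 5′ to 3′ and with T for U, with capitals on the best match to the C box near the 5′ end and on the D box near the 3′ end.
SNORD25: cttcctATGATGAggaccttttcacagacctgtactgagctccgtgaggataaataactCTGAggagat
SNORD26: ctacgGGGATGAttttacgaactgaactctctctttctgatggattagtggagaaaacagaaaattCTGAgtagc
SNORD27: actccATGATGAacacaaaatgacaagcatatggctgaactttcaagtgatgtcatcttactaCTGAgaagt
SNORD28: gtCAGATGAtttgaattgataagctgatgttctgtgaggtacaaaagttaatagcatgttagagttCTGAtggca
SNORD29: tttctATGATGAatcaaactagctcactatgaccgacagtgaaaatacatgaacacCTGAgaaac
SNORD30: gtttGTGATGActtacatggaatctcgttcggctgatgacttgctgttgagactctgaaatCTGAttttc
SNORD31: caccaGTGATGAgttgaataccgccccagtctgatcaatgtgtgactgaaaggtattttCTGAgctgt
SNORD22: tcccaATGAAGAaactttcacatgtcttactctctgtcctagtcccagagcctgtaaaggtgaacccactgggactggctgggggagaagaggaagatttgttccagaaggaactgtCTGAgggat
The C box was searched as NTGATGA in the first 20 bases and the D box as CTGA in the last 20 bases, on the RNA's own strand. A C box that starts with C also contains the letters CTGA, but the windows do not overlap in any member. SNORD25, SNORD27, SNORD29, SNORD30 and SNORD31 held the C box without a mismatch, and SNORD22, SNORD26 and SNORD28 held it with 1 mismatch. All 8 held the D box, which ended 6 bases before the printed 3′ end in SNORD25 and 5 bases before it in the other members. The printed form of SNORD25 is that of GENCODE, which has 1 more base at each end than that of RefSeq. Among 269 other C/D snoRNAs annotated in GENCODE release 29, 69.5% held the C box letters and 94.8% the D box letters in the same windows. Among 142 H/ACA box snoRNAs, the other main class, these shares were 0% and 8.45%. The low-count SNORD30 had both boxes without a mismatch, as did the high-count SNORD29 and SNORD27. The ends just outside the boxes were aligned for up to 5 base pairs. The base next to the C box was skipped where that gave more pairs. SNORD30 and SNORD28 held 1, SNORD31 3 and the other members 4. The number possible differed between members. The C box starts at base 3 in SNORD28 and at base 5 in SNORD30, so fewer than 5 pairs could form there. Their values cannot be set against those of the others. Pairs of G with T were counted too. Whether boxes, pairing or place in the host bear on the level was not tested.

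The members lie on the minus strand of chromosome 11 (GRCh38), within SNHG1 at 62851988 to 62855914, and each sits in an intron. From the 5′ end of the host they run SNORD25 (62855565 to 62855631), SNORD26 (62855292 to 62855366), SNORD27 (62855012 to 62855083), SNORD28 (62854621 to 62854695), SNORD29 (62853904 to 62853968), SNORD30 (62853663 to 62853732), SNORD31 (62853326 to 62853393) and SNORD22 (62852910 to 62853035). Their RefSeq lengths run from 65 bases in SNORD29 to 75 bases in SNORD26 and SNORD28, and SNORD22 stands apart at 126 bases. GENCODE gives SNORD25 1 more base at each end, and that longer form of 69 bases is the one spelled out above. Positions and lengths are those of RefSeq, and exons those of GENCODE. In an SNHG1 isoform with 11 exons, 6 members ended between 69 and 75 bases before the next exon. The distance was 70 bases for SNORD22, 75 for SNORD26, 73 for SNORD27, 69 for SNORD28, 70 for SNORD29 and 72 for SNORD30. SNORD31 ended 210 bases before it, and SNORD25, whose intron was taken from an isoform with 9 exons, 98 bases before it. The isoform with 11 exons starts downstream of SNORD25 and so does not hold it. Isoforms labelled as retaining an intron were left out of the next counts. Of the rest, those that splice out the member's intron numbered 2 for SNORD25 and 9 to 12 for the other members. Among these isoforms, the distance was the same in each for SNORD30 and SNORD31 and varied for the other members. Some isoforms keep introns that hold members. Reads of such transcripts cannot be told apart from those of the snoRNA in a table of counts. SNORD29 and SNORD30, the members with the highest and the lowest level per base, lay in neighbouring introns of 184 and 210 bases at nearly the same distance from the next exon.

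SNORD29 and SNORD27 gave most of the SNHG1-hosted reads and SNORD30 the least, in both groups. A level is given here in CPM, a count scaled to a common library size by TMM, a method that evens out differences in composition between libraries. To order the members, the level is divided by gene length. Whether counts rise with gene length in OTTR-seq was not tested. The shares of counts given below are not divided by length unless stated. Over all 8 libraries SNORD29 averaged 5.53 CPM per base, SNORD27 3.51, SNORD26 1.36, SNORD25 0.694, SNORD28 0.634, SNORD31 0.587, SNORD22 0.354 and SNORD30 0.133 CPM per base. By group SNORD29 stood at 5.95 ± 0.204 CPM per base in tDR libraries and 5.11 ± 0.903 in scramble libraries, and SNORD30 at 0.145 ± 0.028 CPM per base in tDR libraries and 0.122 ± 0.0139 in scramble libraries (SD, n = 4 each). The level per base of SNORD29 was 42.4 ± 8.65 times that of SNORD30 in tDR libraries (SD, n = 4, range 33.4 to 52.7) and 41.9 ± 4.73 times in scramble libraries (SD, n = 4, range 37.45 to 48.6).

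**Figure D1:**
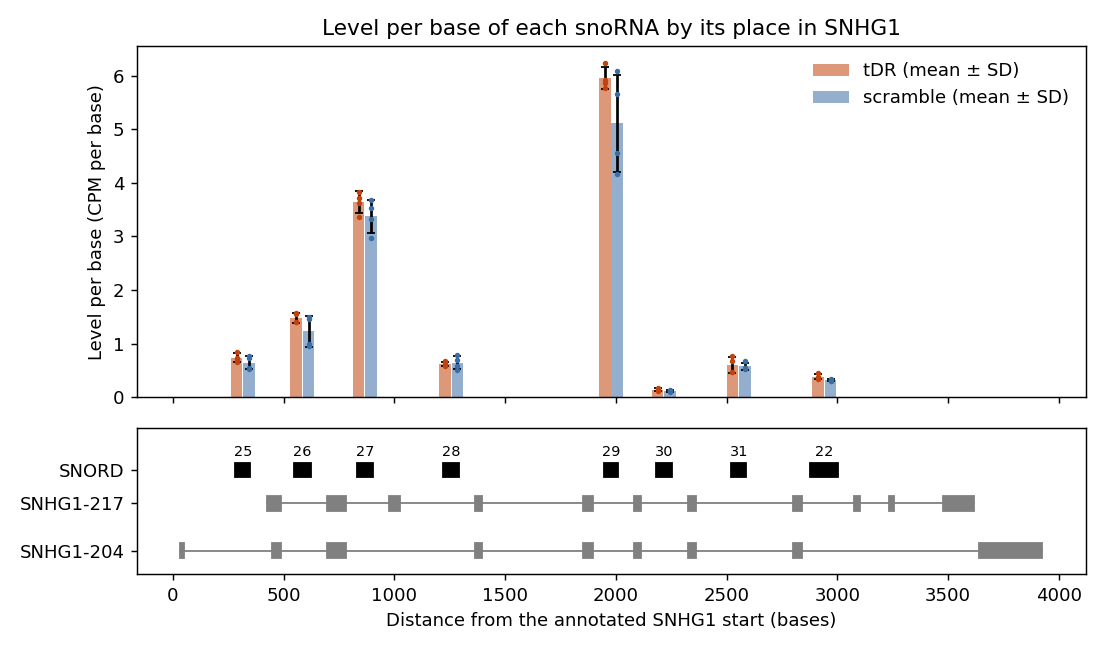
Upper panel: level per base (TMM-scaled CPM divided by gene length) of each snoRNA at its place in SNHG1, with bars for the mean, error bars for the SD and points for the 4 tDR (left bar) and 4 scramble (right bar) libraries. Lower panel: the snoRNAs and the exons of both SNHG1 isoforms against distance from the annotated host start in bases. SNORD29 stands highest at a mean of 5.95 CPM per base in tDR libraries and its neighbour SNORD30 lowest at 0.145.

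Neighbours in this order were compared within each library. SNORD29 was above SNORD27, SNORD27 above SNORD26, SNORD26 above SNORD25, SNORD31 above SNORD22 and SNORD22 above SNORD30 in 8 of 8 libraries. The place of SNORD31 above SNORD22 rests on the division by length, at 68 and 126 bases. Without it SNORD22 was above SNORD31 in every library but scramble library 4, at means of 44.55 and 39.91 CPM. SNORD25 was above SNORD28 in 5 of 8 libraries, with a ratio of 0.978 to 1.47 in tDR libraries and 0.935 to 1.10 in scramble libraries. SNORD28 was above SNORD31 in 4 of 8 libraries, with a ratio of 0.793 to 1.33 in tDR libraries and 0.869 to 1.43 in scramble libraries. So 3 members, SNORD25, SNORD28 and SNORD31, could not be ordered beyond the spread between libraries. SNORD25 stood above SNORD28 in the tDR means and below it in the scramble means, while the other places were the same in both groups. The step from SNORD27 to SNORD26 was the widest near the top, 2.33 to 2.66 times in tDR libraries and 2.36 to 3.46 times in scramble libraries. The raw table lists SNORD30 at 79, 61, 56 and 89 counts in tDR libraries 1 to 4 and 67, 101, 39 and 83 counts in scramble libraries 1 to 4, so its ratios carry the most counting error. No other feature had counts equal or nearly equal to those of any member, where nearly equal means within 10% or 3 counts in every library.

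The composition of the members' reads was described next, as the share of each member in the summed counts of all 8. How far such a share reflects yield from the host, stability or capture by the library method was not tested. Of that sum, 66.9 to 68.4% came from SNORD29 and SNORD27 together in tDR libraries and 66.15 to 69.95% in scramble libraries. SNORD29, which guides methylation of 28S rRNA, made up 39.0, 40.6, 40.3 and 42.0% in tDR libraries 1 to 4 and 38.6, 39.2, 41.4 and 37.0% in scramble libraries 1 to 4. SNORD27, an 18S rRNA guide, made up 27.9, 27.7, 27.6 and 26.4% in tDR libraries 1 to 4 and 31.3, 28.2, 26.6 and 29.2% in scramble libraries 1 to 4. Both shares overlapped between the groups. SNORD26, another 28S rRNA guide, followed at 11.6 ± 0.58% in tDR libraries and 10.8 ± 1.14% in scramble libraries (SD, n = 4 each). SNORD25, SNORD28, SNORD22 and SNORD31 each held between 3.44 and 6.28% in every library. SNORD30 held 0.824 to 1.36% in tDR libraries and 0.917 to 1.11% in scramble libraries.

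**Figure D2:**
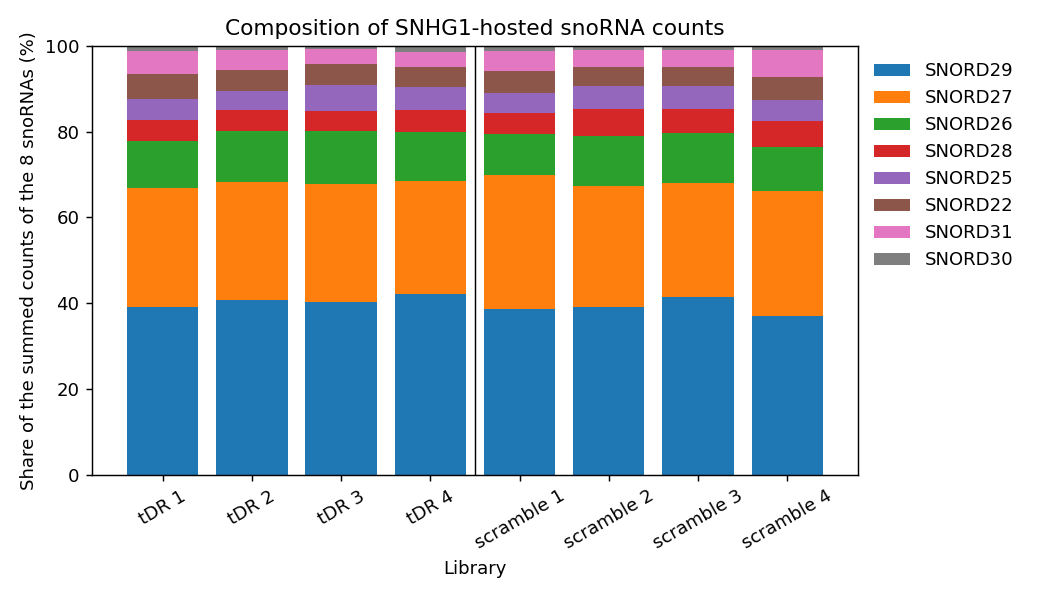
Share of each snoRNA in the summed counts of the 8 SNHG1-hosted snoRNAs (y axis, %) in each library (x axis), tDR libraries left of the line and scramble libraries right of it. SNORD29 and SNORD27 fill between 66.15 and 69.95% of every bar.

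No share separated the groups: 0 of 8 members had shares that did not overlap. The nearest to it was SNORD28, an 18S rRNA guide, with 4.75, 5.06, 4.59 and 5.06% in tDR libraries 1 to 4 and 5.06, 6.28, 5.50 and 6.01% in scramble libraries 1 to 4. Only tDR library 2 lay above a scramble library, and that by less than the digits printed, over scramble library 1. Divided by gene length before the share was taken, SNORD28 no longer overlapped between the groups. Without scramble library 3, SNORD27 did not overlap. The 4 guides of 28S rRNA together gave 57.4 ± 0.861% in tDR libraries and 55.6 ± 1.82% in scramble libraries, and the 3 guides of 18S rRNA 37.5 ± 0.595% in tDR libraries and 39.6 ± 1.47% in scramble libraries (SD, n = 4 each). Both sums overlapped between the groups. Shares of this kind got no test, since the members were chosen with results of these data known.

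After the tDR, no SNHG1-hosted snoRNA passed the test. All 8 passed the filter on low counts and were tested by the quasi-likelihood method of edgeR, adjusted after Benjamini and Hochberg over 1761 features. At an adjusted p below 0.05, 6.7% of these were called in either direction and 5.34% as higher in tDR libraries. Of the members 0 were called, and 0 had an unadjusted p below 0.05, which 21.5% of all tested features had. DESeq2 called 194 of all features and limma-voom 121, and each called 0 of the 8 members. In bulk RNA, fewer cells with a snoRNA and less of it per cell cannot be told apart. The log2 fold changes, tDR over scramble, ran from -0.06 to 0.27 with a median of 0.21, against a median of 0.02 over all tested features. They were above 0 in 7 of 8 members, but since all 8 come from the same host gene and libraries these are not independent. The 95% intervals of the 8 log2 fold changes, which are not widened for the number of members, reached from -0.39 to 0.71. The median depended on the scaling. It was 0.06 with total counts, which moved the median of all features to -0.13, and 0.58 with TMM factors from microRNAs alone, which moved the median of all features to 0.36. It was also 0.14 without scramble library 1 and 0.12 without scramble library 4.

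**Figure D3:**
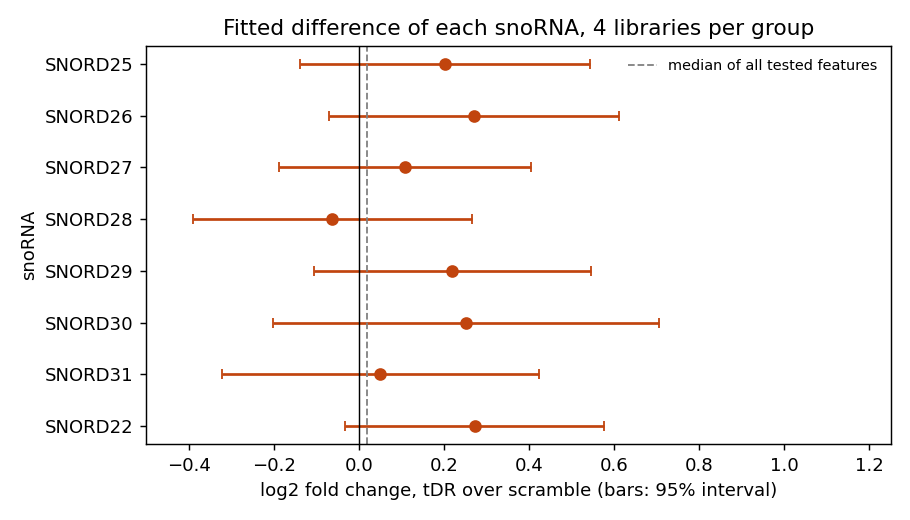
Fitted log2 fold change of each snoRNA, tDR over scramble (x axis), with its 95% interval from edgeR, for 4 libraries per group. All 8 intervals cross 0, and the points lie between -0.06 and 0.27, with the dashed line at 0.02 for the median of all tested features.

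Among the guides of 28S rRNA, SNORD29 had 375, 406, 381 and 385 CPM in tDR libraries 1 to 4, against 296, 368, 395 and 271 CPM in scramble libraries 1 to 4. Every tDR library lay above scramble libraries 1, 2 and 4, and scramble library 3 lay within the tDR range. The log2 fold change was 0.22 (adjusted p = 0.448 by edgeR, SE 0.16, 95% interval -0.11 to 0.55), or 0.12 without scramble library 4. SNORD26 had 105, 117, 117 and 106 CPM in tDR libraries 1 to 4, against 72.3, 110, 112 and 75.2 CPM in scramble libraries 1 to 4. Its scramble libraries fell into 2 low and 2 high values, and the high pair lay within the tDR range. The log2 fold change was 0.27 (adjusted p = 0.356 by edgeR, SE 0.16, 95% interval -0.07 to 0.61), or 0.17 without scramble library 1 and 0.17 without scramble library 4.

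SNORD31 had 52.2, 46.1, 32.6 and 31.7 CPM in tDR libraries 1 to 4, against 35.9, 37.4, 37.5 and 45.9 CPM in scramble libraries 1 to 4. Libraries 1 and 2 of the tDR group lay above every scramble library and libraries 3 and 4 below every one, so the scramble range lay inside the tDR range. Its log2 fold change of 0.05 (adjusted p = 0.919 by edgeR, SE 0.18) was below 0 with total counts, with factors from other snoRNAs and with a higher count filter. It was -0.11 without tDR library 1, -0.0099 without tDR library 2 and -0.0045 without scramble library 3, and above 0 without each of the others. SNORD30 had 10.8, 9.51, 7.79 and 12.4 CPM in tDR libraries 1 to 4, against 8.51, 9.58, 8.76 and 7.23 CPM in scramble libraries 1 to 4. The highest value was in the tDR group and the lowest in the scramble group, with overlap between, for a log2 fold change of 0.25 (adjusted p = 0.547 by edgeR, SE 0.22, 95% interval -0.20 to 0.71), 0.14 without tDR library 4 and 0.16 without scramble library 4.

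Among the guides of 18S rRNA, SNORD27 had 268, 276, 261 and 242 CPM in tDR libraries 1 to 4, against 240, 265, 254 and 214 CPM in scramble libraries 1 to 4. The groups overlapped, and the log2 fold change was 0.11 (adjusted p = 0.761 by edgeR, SE 0.14), -0.04 with total counts and 0.03 without scramble library 4. SNORD25 had 48.0, 44.1, 57.1 and 49.4 CPM in tDR libraries 1 to 4, against 35.3, 49.5, 51.7 and 36.8 CPM in scramble libraries 1 to 4. Scramble libraries 1 and 4 lay below all tDR libraries and the other two within their range. Its log2 fold change was 0.20 (adjusted p = 0.516 by edgeR, SE 0.16), 0.13 without tDR library 3, 0.12 without scramble library 1 and 0.12 without scramble library 4.

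SNORD28 was the member with a log2 fold change below 0. It had 45.7, 50.5, 43.4 and 46.4 CPM in tDR libraries 1 to 4, against 38.7, 59.0, 52.6 and 43.98 CPM in scramble libraries 1 to 4. The tDR libraries lay inside the scramble range, and the log2 fold change was -0.06 (adjusted p = 0.875 by edgeR, SE 0.16). It was 0.29 with factors from microRNAs alone. With 1 library left out it ran from -0.16 (scramble library 1) to 0.038 (scramble library 2), and it was below 0 without each of the other libraries.

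SNORD22, the member with no assigned methylation site, had 56.2, 48.6, 46.1 and 43.98 CPM in tDR libraries 1 to 4, against 39.4, 40.8, 42.7 and 38.8 CPM in scramble libraries 1 to 4. Every tDR library lay above every scramble library, which was so for 1 of the 8 members and for 7.78% of all tested features. The reverse held for 5.51%, so 13.3% of all tested features had no overlap in either direction. The log2 fold change of 0.27 (SE 0.15, 95% interval -0.03 to 0.58) did not pass edgeR (adjusted p = 0.287). With total counts the groups overlapped, at 41.2 to 59.7 CPM in tDR libraries and 37.7 to 47.3 CPM in scramble libraries. With TMM factors from microRNAs alone, 3 members had no overlap: SNORD22, SNORD29 and SNORD31. The share of all features with no overlap under these factors is not given here, so the 3 cannot be set against it. These factors moved the median log2 fold change of all tested features to 0.36, with 160 features called higher and 1 lower. Under them SNORD29 had 352.6 to 530.7 CPM in tDR libraries and 197.6 to 347.6 CPM in scramble libraries. SNORD31 had at least 42.25 CPM in tDR libraries and at most 40.2 CPM in scramble libraries.

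**Figure D4:**
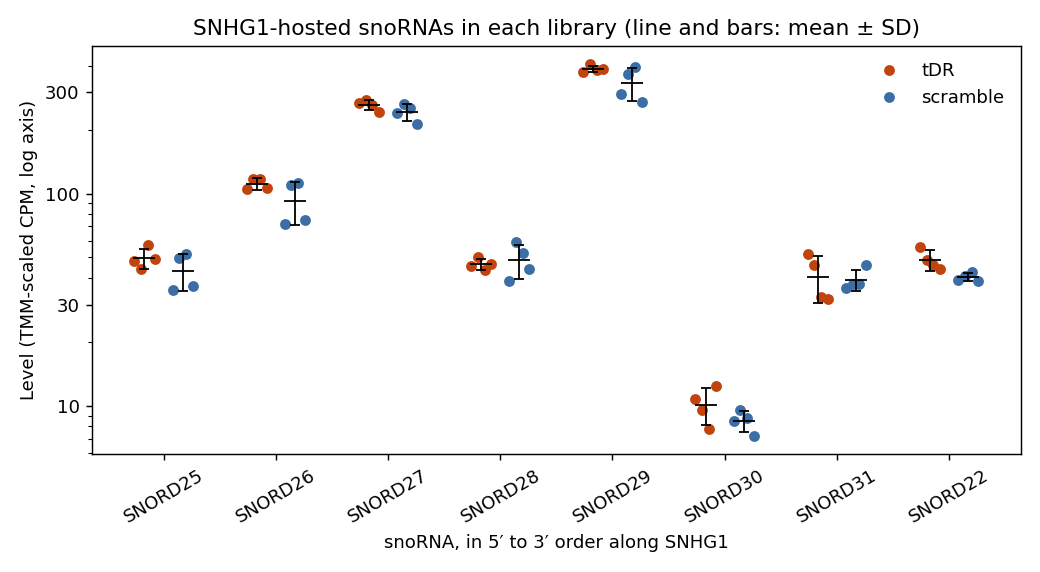
Level of each snoRNA (TMM-scaled CPM, log axis) in 5′ to 3′ order along the host, with a point for each tDR (left) and scramble (right) library and the mean ± SD. With this scaling SNORD22 is the member whose groups do not overlap, with tDR libraries from 43.98 to 56.2 and scramble libraries from 38.8 to 42.7.

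The members summed to 961, 998, 946 and 917 CPM in tDR libraries 1 to 4, against 766, 938, 955 and 732 CPM in scramble libraries 1 to 4. Scramble libraries 1 and 4 were low, and scramble libraries 2 and 3 lay within the tDR range. The sums averaged 956 ± 33.96 CPM in tDR libraries and 848 ± 115 CPM in scramble libraries (SD, n = 4 each), a coefficient of variation of 3.55% in tDR libraries and 13.6% in scramble libraries. As a share of all C/D snoRNA counts the members made up 7.27, 7.22, 7.26 and 7.75% in tDR libraries 1 to 4 and 6.33, 7.41, 7.57 and 6.69% in scramble libraries 1 to 4, so the same 2 scramble libraries were low on this scale too. Of all counts they made up 0.0844 to 0.102% in tDR libraries and 0.0732 to 0.106% in scramble libraries. The exact (Clopper-Pearson) 95% interval, which covers counting error only, was 0.0714 to 0.0751% in scramble library 1 and 0.103 to 0.109% in scramble library 3, so these libraries differed by more than counting error. Scramble libraries 1 and 4 lay below scramble libraries 2 and 3 in every member but SNORD31, by little in SNORD22. Why they were low was not tested. The log2 ratio of the mean sums, 0.17, was 0.11 without scramble library 4.

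Facts of the whole table frame these values. The counts over features summed to between 6910186 and 8007025 in tDR libraries and between 4016295 and 10246336 in scramble libraries, with the lowest depth in scramble library 3. A row named scr2, left out of the tests, held 7.37 to 34.7 CPM of total counts in tDR libraries and 3535 to 5679 in scramble libraries, which separated the groups as labelled. Of 10 microRNAs marking other cell types, 6 had a row and together held 8.87 to 15.6 CPM of total counts in tDR libraries and 6.19 to 12.7 in scramble libraries. The 5 listed microRNAs of the miR-17-92 cluster, common in dividing cells, held 1425 to 2972 CPM of total counts in tDR libraries and 2012 to 4414 in scramble libraries.

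Other snoRNAs give the setting for the members, and none of them passed either. GAS5 and RPL13A are other host genes that carry several C/D snoRNAs in their introns. Of 10 GAS5-hosted C/D snoRNAs 0 were called and the median log2 fold change was 0.02, with a range from -0.15 to 0.32. Of 4 RPL13A-hosted C/D snoRNAs 0 were called, with a median of -0.03 and a range from -0.34 to 0.07. Among the remaining C/D snoRNA rows 166 were tested, 0 were called, 5 had an unadjusted p below 0.05 and the median was 0.07. Among 127 tested H/ACA snoRNA rows and 24 tested scaRNA rows 0 were called, with medians of 0.12 and 0.03. Of them, 5 H/ACA rows and 2 scaRNA rows had an unadjusted p below 0.05. Over all tested features 6.7% were called, and 21.5% had an unadjusted p below 0.05 by edgeR. The lowest p among the remaining C/D rows belonged to SNORD50A, SNORD102 and SNORD14B, with log2 fold changes of 0.47, 0.37 and 0.35, and their adjusted p from edgeR was 0.172, 0.173 and 0.185. Whether the SNHG1-hosted median differs from the medians of other lists was not tested.

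The spread between scramble libraries was not limited to SNHG1. SNORD81, hosted by GAS5, had 490, 433, 464 and 479 CPM in tDR libraries 1 to 4 and 307, 456, 434 and 301 CPM in scramble libraries 1 to 4, low in the same 2 scramble libraries as SNORD29. Its log2 fold change was 0.32 with an SE of 0.17 (adjusted p = 0.278 by edgeR). SNORD44, from the same host, had 486, 491, 453 and 406 CPM in tDR libraries 1 to 4 and 418, 492, 469 and 427 CPM in scramble libraries 1 to 4. It too was lower in scramble libraries 1 and 4, but within the tDR range. Of the 10 GAS5-hosted members, all but SNORD74 and SNORD80 were lower in scramble libraries 1 and 4 than in 2 and 3. SNORD74 had 73.8, 57.3, 54.4 and 60.1 CPM in scramble libraries 1 to 4, and SNORD80 had 160.9, 156.8, 163.5 and 137.6 CPM. Of the RPL13A-hosted snoRNAs, only SNORD32A was lower in scramble libraries 1 and 4 than in 2 and 3. In scramble libraries 1 to 4, SNORD33 had 130.7, 123.5, 115.7 and 106.0 CPM. SNORD34 had 45.85, 41.44, 39.53 and 45.03 CPM there, and SNORD35A 74.04, 70.74, 71.42 and 63.92 CPM. The profile of the summed members over the 8 libraries was set against 133 other C/D snoRNAs with a mean count of at least 100, by the root-mean-square difference of centred log2 levels. The nearest were SNORD97 at 0.076, SNORD10 at 0.081 and SNORD12C at 0.085, against a median of 0.1805 over all 133. Among the members themselves this difference from the sum, which they form in part, ran from 0.056 in SNORD29 to 0.286 in SNORD31. All these profiles share the same libraries and scaling factors.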

How the data were processed

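Small RNA was sequenced from 4 tDR and 4 scramble libraries of HEK293 cells. Per the labels' protocols, total RNA was extracted with TRIzol and libraries were made by OTTR-seq. Per the submitters' processing notes the build was hg38. Neither aligner nor counter nor annotation is given in the sources used here, and whether partial snoRNA fragments were counted is not known. The authors deposited raw counts for each feature, in whole numbers. They also deposited a normalized signal, in which each library's counts were rescaled, tRNA rows by one constant and all remaining rows by another. How the constants were made is not stated.

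The test was the robust quasi-likelihood F test of edgeR 4.0.16 in R 4.3.3, with Benjamini-Hochberg adjustment and no covariates, on the 1761 features that filterByExpr kept, after TMM scaling. The rows scr and scr2 stayed out. The biological coefficient of variation was 19%. The SE was derived from the log2 fold change and its F. CPM values are TMM-scaled, except those of microRNAs and scr2, which are per total count. Alternatives used DESeq2 1.42.0 and limma 3.58.1. The fit was also run on simulated data with 200 changed features. Each was changed by more than any member, so that run does not bear on differences as small as the members'. Over 12 replicate pairs chi-square divided by its degrees of freedom was at least 15.6, which leaves no duplicated library.

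Positions and lengths are from RefSeq (GRCh38.p14) and exons from GENCODE release 29 (GRCh38). Sequences of 6 snoRNAs are GENCODE transcripts. Those of SNORD29 and SNORD31 were read at their RefSeq positions from SNHG1 transcripts in GENCODE that keep the intron. For SNORD22, SNORD25, SNORD26, SNORD27 and SNORD28 such transcripts gave the same sequence as the snoRNA entry, and SNORD30 was not checked in this way. The members, lists, guide roles and tests were chosen with earlier results of these data known. The text names all 8 members, the called members of the GAS5 and RPL13A lists (there were 0), the 3 other C/D snoRNAs with the lowest p and the 3 with the nearest profile. SNORD81, SNORD44, SNORD74, SNORD80 and the RPL13A-hosted snoRNAs named were chosen after their values were seen. Figures were made with Python 3.11.15 and matplotlib 3.10.9.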

Additional observations from a re-analysis of the deposited data

Results flagged for a closer look

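A sample was taken as far from its group when its gap to the nearest other library exceeded Dixon's critical share of the group's range, which it did at 0.93 and 0.84 here. Over 34 groups of 4 libraries 2 values met this, and chance flags about 1 in 20 groups. The share of SNORD22 in the members' counts was 5.84% in tDR library 1, against 4.80 to 4.87% in the other tDR libraries. The level of SNORD31 was 45.9 CPM in scramble library 4, against 35.9 to 37.5 CPM in the other scramble libraries.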

How the results depend on the processing

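No member was called under any of 18 alternatives, with a lowest adjusted p of 0.072 (SNORD22, edgeR with TMM factors from microRNAs alone), and 134 of 144 log2 fold changes of members kept their direction. SNORD27 turned to -0.039 with total counts. SNORD31 turned to -0.095 with total counts, -0.056 with factors from other snoRNAs and scaRNAs and -0.025 where only features of mean count 50 or more were kept, and ran from -0.11 to 0.16 with 1 library left out. SNORD28 turned to 0.29 with factors from microRNAs alone and 0.00085 on the deposited normalized values, and ran from -0.16 to 0.038 with 1 library left out. The median of the 8 members was 0.58 with factors from microRNAs alone and 0.12 to 0.26 with 1 library left out. The log2 ratio of their summed levels, 0.17, was 0.022 with total counts and 0.52 with factors from microRNAs alone, and 0.11 to 0.23 with 1 library left out. The number of members whose shares did not overlap was 1 after division by gene length and 0 to 1 with 1 library left out: SNORD28 without tDR library 2 or scramble library 1, SNORD27 without scramble library 3. The order by level per base, with 5 of 7 neighbouring pairs separated, was the same without each library, while without division by length SNORD28 stood before SNORD25 and SNORD22 before SNORD31, with 4 pairs separated. Over all features the 118 calls (94 higher, 24 lower) became 194 with DESeq2 (133 and 61), 185 with limma on the deposited normalized values (145 and 40), 39 with the replicate block (38 and 1) and 65 to 164 with 1 library left out (65 without scramble library 2, 70 without scramble library 3). Same-numbered libraries correlated at -0.345 to -0.12 after group means were removed, so the numbers were not taken as pairs. The split of higher and lower calls was 54 and 39 with total counts, 160 and 1 with factors from microRNAs alone, 68 and 52 with factors from other snoRNAs and scaRNAs and 77 and 46 with the filter at a mean count of 50. Apart from settings named with their construction, the cause of these shifts was not tested. SNORD30, at 39 to 101 counts a library, is limited most by depth.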
